A study of Mus musculus with 36 samples.

Results

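The genes described here are 10 transcripts of hepatic insulin signalling, *Insr*, *Grb14*, *Irs1*, *Irs2*, *Pdpk1*, *Akt1*, *Akt2*, *Foxo1*, *Foxo3* and *Foxo4*, taken by gene symbol from the 38283 genes of a liver RNA sequencing count table, and all 10 passed the filter on low counts. Livers were from 36 mice on a C57Bl/6J background, maintained on chow and aged 16 weeks, with 6 wild-type and 6 heterozygous mice, written WT/Y657*, in each of 3 feeding states. The heterozygous mice carried 1 *Pik3r1* allele in which a stop codon replaces a tyrosine codon near the end of the reading frame, and the wild-type mice carried none. The allele was made in embryonic stem cells, so that every tissue of these mice carried it. Fed mice were taken with chow freely available, fasted mice after 16 h without food, and refed mice after such a fast and 6 h with chow again. Each mouse was sampled once, so the groups are different animals, and the study describes the fed and fasted mice as males, with wild-type littermates.

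Insulin binds the receptor encoded by *Insr*, whose kinase phosphorylates the docking proteins encoded by *Irs1* and *Irs2*, and these recruit phosphoinositide 3-kinase, a heterodimer of a catalytic subunit and a regulatory subunit such as those encoded by *Pik3r1*. The lipid product of this kinase brings PDK1 (*Pdpk1*) and AKT (*Akt1*, *Akt2*) to the membrane, and activated AKT phosphorylates the FOXO transcription factors (*Foxo1*, *Foxo3*, *Foxo4*), which then leave the nucleus. In liver, nuclear FOXO1 is known to drive gluconeogenic genes and *Irs2* in the fasted state. *Grb14* encodes an adaptor that binds the activated receptor and inhibits it. RNA levels say nothing of the phosphorylation of these proteins, which is where most of the regulation in this pathway takes place.

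The promoters of the pair of docking-protein genes are shown because *Irs2* fell most on refeeding among the 10 genes in both genotypes and *Irs1*, its relative, had the largest difference between fasted genotypes. RefSeq windows of 250 bases before to 50 after a transcription start (build GRCm38.p6) were found for 8 of the 10 genes, all but *Insr* and *Foxo4*. The sequences below run 5' to 3' along the gene, and capitals mark the letters CACGTG, an E-box, and TGTTTTG, the reverse complement of CAAAACA, which is a core that FOXO proteins can bind.
Irs1 promoter, chr1:82291390-82291689, minus strand: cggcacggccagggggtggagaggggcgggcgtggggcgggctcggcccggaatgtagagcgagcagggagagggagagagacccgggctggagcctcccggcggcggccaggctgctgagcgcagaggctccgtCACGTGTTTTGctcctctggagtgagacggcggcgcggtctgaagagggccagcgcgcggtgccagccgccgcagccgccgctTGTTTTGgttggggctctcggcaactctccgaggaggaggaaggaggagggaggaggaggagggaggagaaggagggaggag
Irs2 promoter, chr8:11008880-11009179, minus strand: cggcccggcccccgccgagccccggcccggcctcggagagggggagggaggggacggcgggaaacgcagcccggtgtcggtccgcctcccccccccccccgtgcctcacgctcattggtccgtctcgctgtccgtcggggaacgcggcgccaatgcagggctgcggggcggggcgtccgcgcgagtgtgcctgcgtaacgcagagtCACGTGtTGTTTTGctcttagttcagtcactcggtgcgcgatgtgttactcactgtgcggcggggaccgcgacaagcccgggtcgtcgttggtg
In *Irs1* the E-box began 115 bases before the start and overlapped the first TGTTTTG, which began 111 bases before it, and a second TGTTTTG began 32 bases before it. In *Irs2* the E-box began 44 bases before the start and a TGTTTTG began 37 bases before it, with 1 base between them. The RefSeq start of *Irs2* lies 471 bases from the start of the gene in the GENCODE M21 annotation, and that of *Irs1* 23 bases from it. Both strands were searched for 5 motifs. Of all 32851 promoters in the table, 7.15% hold CACGTG and 6.28% hold CAAAACA on either strand. GTAAACA, held by 3.65% of all promoters, was found in 1 of the *Akt1* windows only, and CAAAATA (4.36%) and TGACGTC, the core of the cyclic AMP response element (3.21%), were in no window of the 8 genes. These matches describe letters and were not tested as binding sites.

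The deposited counts totalled 8839488 to 19542775 per mouse. Levels are given as CPM, counts divided by a library total adjusted with trimmed mean of M-values (TMM) factors. Differences are log2 fold changes with their standard error (SE) from edgeR's quasi-likelihood test, and a gene is said to be called where its p, adjusted over 13945 genes by the Benjamini-Hochberg method, was under 0.05. Such p-values weigh a difference against the spread between these mice, estimated over all groups together and with information shared across genes. Hepatocyte markers were abundant in every mouse, with *Alb* at no less than 29990 CPM. In bulk tissue, fewer cells of a type and less RNA per cell cannot be told apart. *Pik3r1* itself had medians of 132.0 CPM in fed wild-type and 132.8 in fed WT/Y657* mice, 94.2 and 99.0 after fasting, and 123.5 and 151.5 after refeeding. By edgeR it was not called between genotypes in fed (0.04, adjusted p = 0.886), fasted (0.05, adjusted p = 0.807) or refed mice (0.23, adjusted p = 0.423). Its reads come from both alleles, so its level does not check the genotype labels. The numbers that the labels give the mice fall into a lower and a higher series for each fasted and each refed group, 3 mice in each, while fed mice have numbers between the 2 series. Feeding state and number series therefore cannot be told apart in comparisons with fed mice. The study took livers before an overnight fast, after it, or after the refeeding that followed. By that schedule time of day also differed between feeding states, in all feeding comparisons, and its part was not tested. Among fed mice most wild-type numbers are below most WT/Y657* numbers. Single mice are named by their labels, in which ALC stands for fed, ONF for fasted, RF6 for refed and MT for WT/Y657*.

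Per kilobase of exon, which allows genes to be compared with each other, *Akt1* (12.5 CPM per kb, mean of 36 mice), *Insr* (12.5) and *Akt2* (12.2) had the highest levels. *Foxo3* followed at 9.25, *Grb14* at 6.33, *Pdpk1* at 5.65, *Foxo4* at 5.0, *Irs1* at 4.11, *Foxo1* at 2.45 and *Irs2* at 1.95 CPM per kb. *Foxo3* RNA thus exceeded *Foxo1* RNA per length on average. *Irs2* was the lowest on this scale and the most variable, with a coefficient of variation of 56.0% over the 36 mice, against 9.37% for *Akt2* and 10.6% for *Akt1*. The lowest count of any of these genes in any mouse was 53, for *Irs2*.

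**Figure D1:**
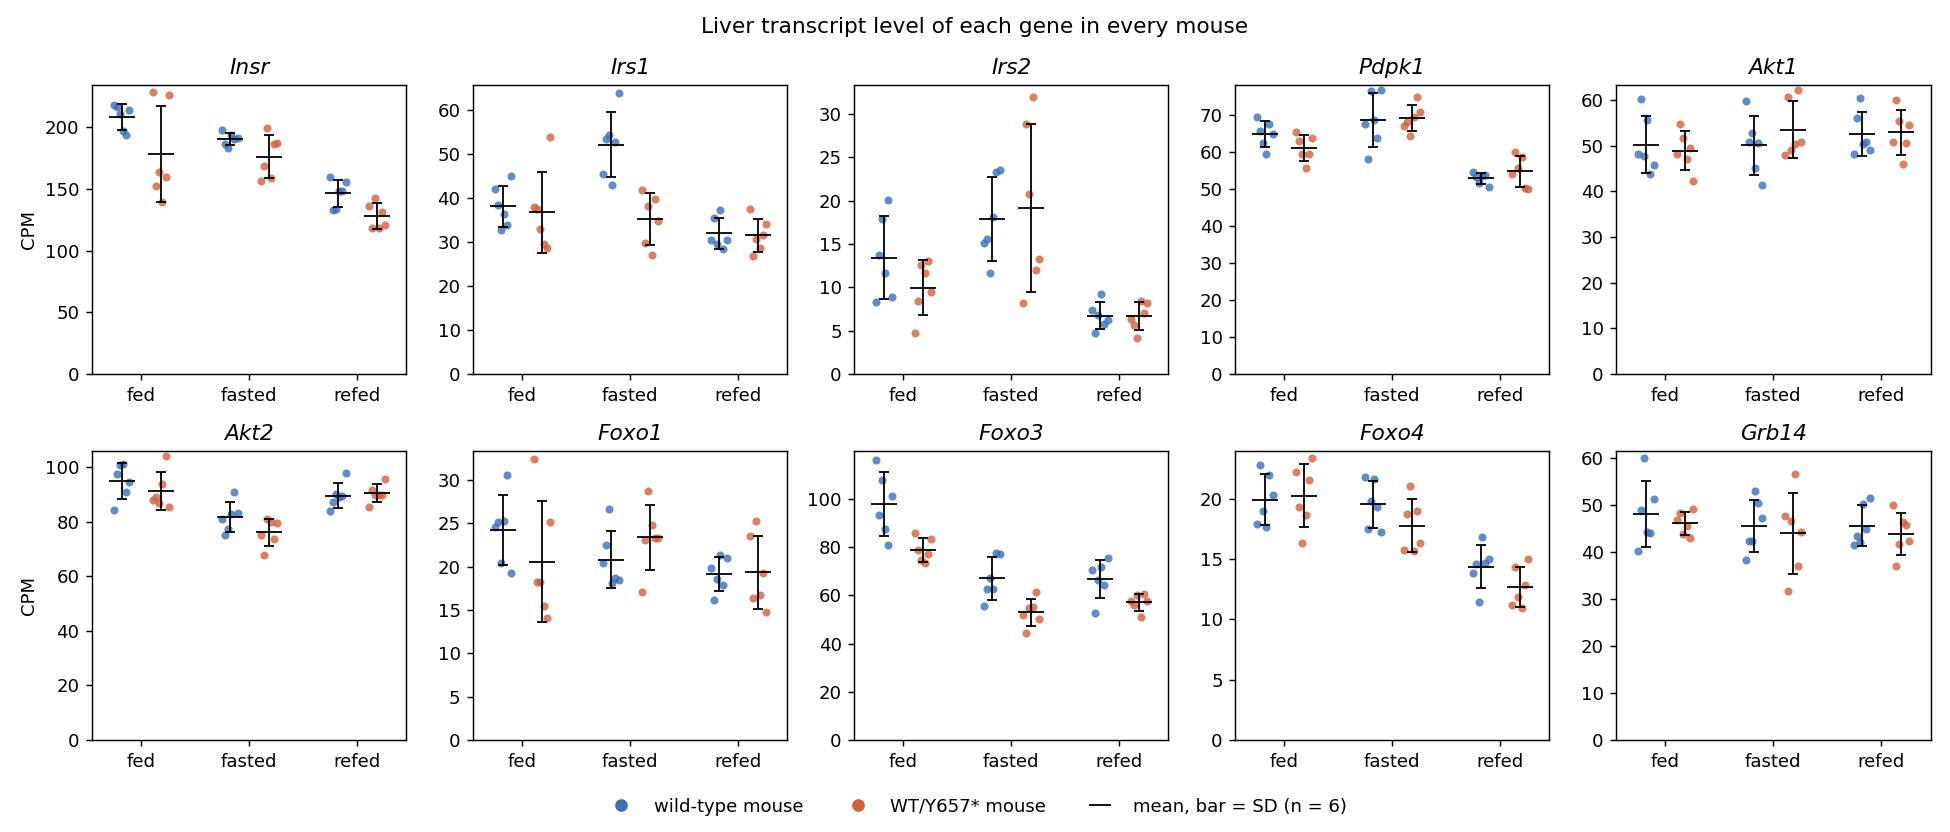
Level of each of the 10 genes in CPM (linear axis from 0) in every mouse, by feeding state, with wild-type mice in blue and WT/Y657* mice in orange; horizontal marks are means and bars are SD of 6 mice. *Irs2*, *Insr*, *Pdpk1* and *Foxo4* are lowest after refeeding, *Irs1* is highest in fasted wild-type mice, and *Foxo3* is highest in fed wild-type mice.

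Between genotypes, 1 of the 10 genes was called in fed mice (*Foxo3*, lower in WT/Y657* mice), where 2.37% of all genes tested were called (1.21% higher and 1.15% lower), and 2 in fasted mice (*Irs1* and *Foxo3*, both lower), where 13.1% were (6.43% higher and 6.63% lower). In refed mice none was called by edgeR's quasi-likelihood test, where 0.0287% of all genes were (0.0215% higher and 0.00717% lower). DESeq2 and edgeR's likelihood ratio test also called none there. An unadjusted p under 0.05 was reached there by 2 of the 10 (*Insr* and *Foxo3*) with the quasi-likelihood test and DESeq2. With the likelihood ratio test it was reached by 1 (*Foxo3*). The share of all genes under that unadjusted threshold was not computed. On fasting 1 of the 10 rose and 2 fell in wild-type mice, where 32% of all genes were called (14.5% higher and 17.5% lower), and 2 rose and 2 fell in WT/Y657* mice, where 32.9% were (15.2% and 17.7%). On refeeding 5 fell in wild-type mice, where 30.2% of all genes were called (16.5% higher and 13.7% lower), and 1 rose and 4 fell in WT/Y657* mice, where 31.3% were (17.1% and 14.2%). Against fed mice, 5 were lower in refed wild-type mice, where 27.5% of all genes were called (13.2% higher and 14.3% lower), and 3 were lower in refed WT/Y657* mice, where 26.1% were (13% and 13.1%). The fasting and refeeding comparisons share the fasted mice, and those against fed mice share the fed mice, so the counts are not independent of each other. Over the 10 genes, *Akt1*, *Foxo1* and *Grb14* were called in no comparison.

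The receptor transcript was lowest after refeeding. *Insr* (ENSMUSG00000005534, chromosome 8, 3122061 to 3279617, minus strand, GRCm38) ranged in fed mice from 193.8 to 217.9 CPM (median 212.6) in wild-type and from 139.5 to 228.9 (median 161.6) in WT/Y657* animals. After fasting it ranged from 183.1 to 197.7 (median 191.1) and from 156.8 to 199.9 (median 177.7), and after refeeding from 133.4 to 160.0 (median 148.4) and from 118.6 to 142.8 (median 126.2), respectively. In each genotype all 6 refed mice lay below every fasted mouse. The change on refeeding was -0.38 (SE 0.089, adjusted p = 0.00118) in wild-type and -0.46 (SE 0.090, adjusted p = 0.000115) in WT/Y657* mice. Against fed mice refed mice were lower by -0.51 (SE 0.089, adjusted p = 4.88e-05) and -0.48 (SE 0.089, adjusted p = 0.000116), and 1 refed WT/Y657* mouse overlapped the fed range. Fasting itself moved *Insr* by -0.13 (adjusted p = 0.288) and -0.02 (adjusted p = 0.918), neither called. Group means ran from refed WT/Y657* through refed wild-type, fasted WT/Y657*, fed WT/Y657* and fasted wild-type to fed wild-type mice, and the differences between fed WT/Y657* mice and each neighbour in this order were within the larger SD.

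*Insr* split the fed WT/Y657* mice. Of these 6 mice, 4 lay below every fed wild-type mouse, at 139.5 to 163.5 CPM, and 2 lay above every one, at 226.0 and 228.9 CPM. The log2 fold change by genotype was -0.23 (SE 0.089, adjusted p = 0.163) in fed, -0.11 (adjusted p = 0.450) in fasted and -0.19 (adjusted p = 0.478) in refed mice, negative in all 3 states and not called in any. Without either of the 2 higher fed mice the fed difference was -0.31 and the gene was called (adjusted p = 0.0252 without the highest and 0.0367 without the other). Both mice belong to the block of neighbouring numbers that holds both genotypes, within which the difference was -0.05 (2 wild-type and 3 WT/Y657* mice, no test).

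*Grb14* (ENSMUSG00000026888, chromosome 2, 64912476 to 65024987, minus strand), which encodes the receptor's inhibitory adaptor, differed little. Its group medians lay between 44.0 and 46.6 CPM, with single mice from 31.8 to 60.0, and no neighbours in the order of the 6 group means differed beyond their spread. The largest of its 9 pairwise log2 fold changes was -0.08 (fasting in wild-type mice, 95% interval -0.29 to 0.13).

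*Irs1* rose on fasting in wild-type animals, while its change in WT/Y657* animals was not called. *Irs1* (ENSMUSG00000055980, chromosome 1, 82233101 to 82291416, minus strand) was at 32.7 to 45.0 CPM (median 37.4) in fed wild-type and at 28.5 to 53.9 (median 35.2) in fed WT/Y657* mice. After fasting it was at 42.9 to 63.8 (median 53.0) in wild-type and at 27.1 to 41.8 (median 36.5) in WT/Y657* mice, and these ranges did not overlap. After refeeding the genotypes overlapped over most of their ranges, 28.5 to 37.3 (median 30.5) and 26.8 to 37.4 (median 31.1). Fasted wild-type mice were the highest group, and the other 5 group means did not differ from their neighbours beyond their spread.

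The genotype difference in fasted mice was -0.56 (SE 0.12, adjusted p = 0.00217), a ratio of 0.676, and all 6 WT/Y657* values lay under the lowest wild-type value. It was -0.70 in the lower-numbered and -0.44 in the higher-numbered mice (3 against 3 each, no test). In fed mice the difference was -0.05 (adjusted p = 0.866, 95% interval -0.30 to 0.20) and in refed mice -0.02 (adjusted p = 0.970, 95% interval -0.28 to 0.23). On fasting *Irs1* changed by 0.45 (SE 0.12, adjusted p = 0.00448) in wild-type mice, with 5 of 6 fasted mice above every fed mouse, and by -0.06 (adjusted p = 0.755) in WT/Y657* mice. On refeeding it fell by 0.70 (SE 0.12, adjusted p = 3.38e-05) in wild-type mice, all 6 below every fasted mouse, and changed by -0.16 (adjusted p = 0.344) in WT/Y657* mice. The fed WT/Y657* group includes ALC_MT_857 at 53.9 CPM, against 28.5 to 37.9 in the other mice of that group. The fed genotype difference and the fasting change in WT/Y657* mice both include this mouse.

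The test of the difference itself was not passed after adjustment. The response of *Irs1* differed between genotypes by -0.51 (SE 0.175, unadjusted p = 0.0059, adjusted p = 0.0855 by edgeR) on fasting and by 0.54 (SE 0.175, unadjusted p = 0.00379, adjusted p = 0.0988 by edgeR) on refeeding, and both use the same fasted mice. None of the 10 genes was called in either test by edgeR's quasi-likelihood or likelihood ratio test or by DESeq2, where 4.35% (2.59% higher, 1.76% lower) and 2.06% (0.595% higher, 1.46% lower) of all genes were called by the first. *Irs1* was the 1 gene of the 10 that had an unadjusted p under 0.05 by each of these tests. The share of all genes under that unadjusted threshold was not computed. When only the fasted and refed libraries were fitted, *Irs1* was called for the refeeding difference (0.54, adjusted p = 0.0492, edgeR).

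*Irs1* exons overlap those of *Gm9747*, a gene on the opposite strand, and although the library kit keeps strand, the strand setting of the counting is not stated, so reads of the pair cannot be told apart. *Gm9747* was at 20.3 to 32.7 CPM in fasted wild-type and 9.25 to 19.1 in fasted WT/Y657* mice, ranges that did not overlap either, with medians of 17.1 and 16.9 in fed and 14.8 and 11.5 in refed mice. Its part in the *Irs1* counts was not tested.

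*Irs2* fell on refeeding in both genotypes, the largest change among the 10 genes. *Irs2* (ENSMUSG00000038894, chromosome 8, 10984681 to 11008458, minus strand), the docking protein whose transcript is known to be repressed by insulin in liver, was at 8.26 to 20.1 CPM (median 12.7) in fed wild-type and 4.75 to 13.1 (median 10.5) in fed WT/Y657* mice. After fasting it was at 11.6 to 23.6 (median 16.9) in wild-type and 8.17 to 31.96 (median 17.03) in WT/Y657* mice, and after refeeding at 4.74 to 9.29 (median 6.53) and 4.14 to 8.47 (median 6.69). All 6 refed wild-type mice lay below every fasted wild-type mouse, and 4 of 6 refed WT/Y657* mice lay below every fasted WT/Y657* mouse. The change on refeeding was -1.41 (SE 0.29, adjusted p = 0.000298) in wild-type and -1.53 (SE 0.29, adjusted p = 0.000106) in WT/Y657* mice, ratios of 0.376 and 0.348.

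Fasting raised *Irs2* by 0.93 (SE 0.28, adjusted p = 0.00934) in WT/Y657* mice, with 4 of 6 fasted mice above every fed mouse, and moved it by 0.42 (SE 0.275, adjusted p = 0.266) in wild-type mice, with 2 of 6 above. The difference between these responses was 0.52 (SE 0.39, adjusted p = 0.496) and was not called. With only the fed and fasted WT/Y657* libraries in the fit, the rise was 0.94 and was not called (adjusted p = 0.0593, edgeR). Refed wild-type mice were below fed ones by -0.99 (SE 0.29, adjusted p = 0.00973), with 5 of 6 below every fed mouse, and refed WT/Y657* mice by -0.59 (SE 0.29, adjusted p = 0.133), not called. An antisense transcript, *9530052E02Rik*, overlaps *Irs2* exons, and its reads were not analysed here.

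Between genotypes *Irs2* was not called in any state (-0.42, adjusted p = 0.449, in fed, 0.10, adjusted p = 0.863, in fasted and -0.02, adjusted p = 0.988, in refed mice), but the fasted value averages opposite differences in the 2 mouse number series. In the lower-numbered series the 3 fasted wild-type mice were at 11.6, 15.1 and 15.6 CPM and the 3 WT/Y657* mice at 20.7, 28.8 and 31.96. In the higher-numbered series the wild-type mice were at 18.2, 23.3 and 23.6 and the WT/Y657* mice at 8.17, 11.96 and 13.3. Genotypes did not overlap within either series, and the differences in mean log2 CPM were 0.93 and -0.97 (3 against 3, no test). In refed mice they were 0.34 and -0.37. The fall on refeeding was present within each series and genotype, at -1.16 and -1.61 in wild-type and -1.75 and -1.02 in WT/Y657* mice. In WT/Y657* mice the rise on fasting rests on the lower-numbered series, in which all 3 fasted mice lay above the highest fed mouse at 13.1 CPM, against 1 of 3 in the other. The 2 series also did not overlap in fasted wild-type mice for *Akt1*, *Akt2*, *Foxo1* and *Grb14*, and in refed wild-type mice for *Foxo4* and *Grb14*. With *Irs2*, this made 9 of the 40 pairs of a gene and a fasted or refed group. With 3 mice against 3, some pairs separate by chance alone. The share over all genes was not computed, so nothing about these genes is read from this count. What the series stand for is not stated in the sources used here.

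**Figure D2:**
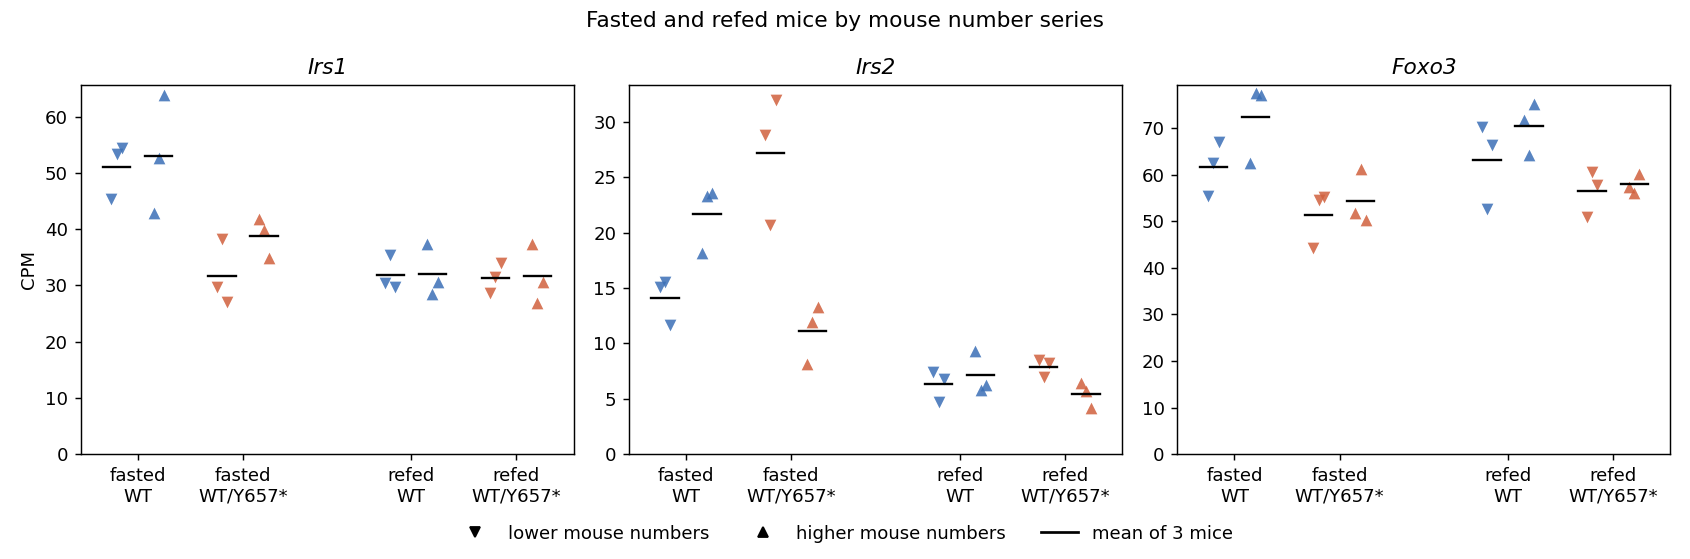
Level of *Irs1*, *Irs2* and *Foxo3* in CPM (linear axes from 0) in fasted and refed mice, split by mouse number series (downward triangles, lower numbers; upward triangles, higher numbers; lines, means of 3 mice), wild-type in blue and WT/Y657* in orange. For *Irs2* the fasted WT/Y657* mice lie above the wild-type mice in the lower series and below them in the higher, while for *Irs1* and *Foxo3* the WT/Y657* mean is lower in both.

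Of the kinases, *Pdpk1* fell on refeeding, *Akt2* fell on fasting and *Akt1* was not called. *Pdpk1* (ENSMUSG00000024122, chromosome 17, 24073680 to 24150924, minus strand) encodes the kinase that phosphorylates the activation loop of AKT. It was at 57.9 to 76.7 CPM (median 67.9) in fasted wild-type and 64.2 to 74.6 (median 68.7) in fasted WT/Y657* mice, and at 50.5 to 54.5 (median 53.3) and 50.0 to 59.9 (median 54.8) after refeeding. The refed and fasted ranges did not overlap in either genotype, and the changes were -0.37 (SE 0.061, adjusted p = 1.14e-05) and -0.33 (SE 0.061, adjusted p = 5.03e-05). In fed mice the medians were 65.2 and 61.1 CPM. The rise on fasting in WT/Y657* mice was 0.18 (SE 0.061, adjusted p = 0.0220), with 5 of 6 fasted mice above every fed mouse, but it was not called with library size scaling (0.13, adjusted p = 0.119), with no filter (0.16, adjusted p = 0.115), when only the groups compared were fitted (0.18, adjusted p = 0.0559), or without ALC_MT_868 (0.15, adjusted p = 0.0664) or ONF_MT_921 (0.15, adjusted p = 0.0615). The change in wild-type mice was 0.08 (adjusted p = 0.356), not called. Refed wild-type mice were below fed ones by -0.30 (SE 0.061, adjusted p = 0.00038) with no overlap, and refed WT/Y657* mice by -0.16 (SE 0.061, adjusted p = 0.0554), which missed the threshold.

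*Akt2* (ENSMUSG00000004056, chromosome 7, 27591552 to 27640826, plus strand), the AKT isoform best known for insulin action in liver, was at 84.2 to 101.1 CPM (median 96.0) in fed wild-type and 85.3 to 104.1 (median 88.5) in fed WT/Y657* mice. After fasting it was at 75.2 to 90.9 (median 81.9) and 67.9 to 80.8 (median 77.3). The changes were -0.21 (SE 0.058, adjusted p = 0.00437) and -0.26 (SE 0.058, adjusted p = 0.000584), ratios of 0.863 and 0.835, and in WT/Y657* mice the ranges did not overlap. After refeeding it was at 83.9 to 97.8 (median 89.2) and 85.3 to 95.4 (median 89.9), a rise of 0.25 (SE 0.058, adjusted p = 0.00108) in WT/Y657* mice, all 6 above every fasted mouse, and of 0.13 (SE 0.058, adjusted p = 0.0845) in wild-type mice, not called. *Akt1* (ENSMUSG00000001729, chromosome 12, 112653821 to 112674884, minus strand) had group medians between 48.0 and 52.7 CPM, and no neighbouring group means differed beyond their spread. Its largest change was 0.13 (fasting in WT/Y657* mice, 95% interval -0.05 to 0.31).

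**Figure D3:**
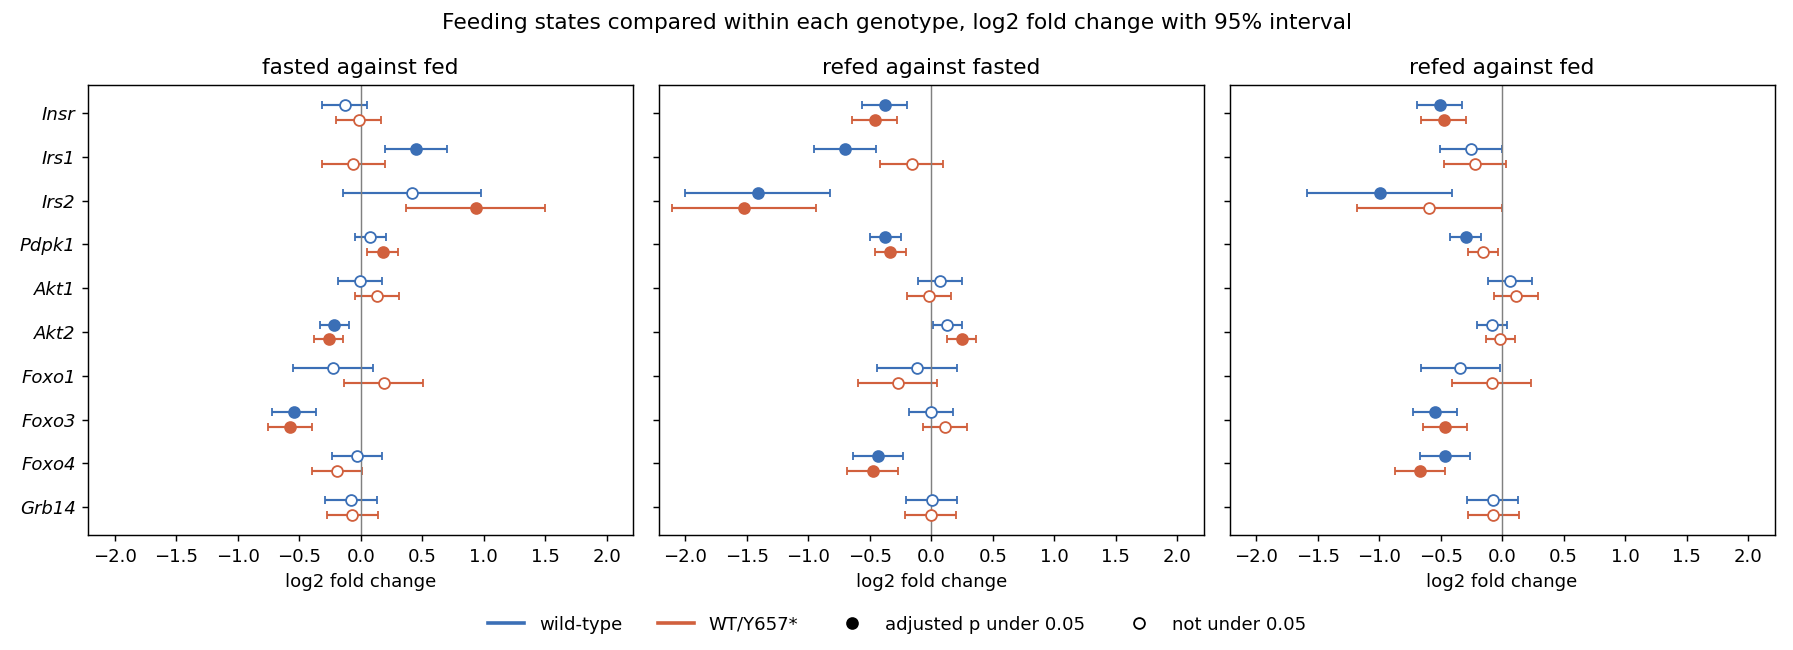
Log2 fold changes of the 10 genes between feeding states in wild-type (blue) and WT/Y657* (orange) mice, with 95% intervals from the standard error on 30 degrees of freedom; filled points passed an adjusted p under 0.05. *Irs2* has the largest falls on refeeding (-1.41 and -1.53), *Foxo3* falls on fasting in both genotypes (-0.54 and -0.58), and *Akt1* and *Grb14* lie near 0 throughout.

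*Foxo3* was lower in WT/Y657* than in wild-type mice in the fed and fasted states, and lower after fasting than in fed mice in both genotypes. *Foxo3* (ENSMUSG00000048756, chromosome 10, 42181841 to 42276755, minus strand) was at 80.9 to 116.2 CPM (median 97.1) in fed wild-type and 73.5 to 85.8 (median 77.8) in fed WT/Y657* mice, with 4 of 6 WT/Y657* values under the lowest wild-type value. After fasting it was at 55.4 to 77.6 (median 64.8) and 44.2 to 61.2 (median 53.2), with 5 of 6 below, and after refeeding at 52.7 to 75.3 (median 68.4) and 50.8 to 60.6 (median 57.6), with 1 of 6 below. The genotype differences were -0.31 (SE 0.087, adjusted p = 0.0458) in fed, -0.34 (SE 0.088, adjusted p = 0.00793) in fasted and -0.23 (SE 0.088, unadjusted p = 0.0141, adjusted p = 0.385 by edgeR) in refed mice, so that the last was not called. Within the mouse number series they were -0.27 and -0.41 in fasted and -0.16 and -0.28 in refed mice, and -0.23 in the block of fed mice that holds both genotypes. The fed call lay close to the threshold. It was lost on leaving out any of 9 of the 12 fed mice (5 wild-type mice, ALC_WT_847, ALC_WT_848, ALC_WT_849, ALC_WT_850 and ALC_WT_856 by their labels, and 4 WT/Y657* mice, ALC_MT_859, ALC_MT_866, ALC_MT_868 and ALC_MT_869), with an adjusted p of up to 0.128, while the value stayed between -0.36 and -0.26.

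Stellate cell markers differed between the same groups. The summed level of the 6 markers was 291.9 to 408.4 CPM in fed wild-type and 414.2 to 563.7 in fed WT/Y657* mice. Of the 6, 2 were called higher, where 1.21% of all genes were. In fasted mice the sums were 344.9 to 417.8 and 385.4 to 544.0, again with 2 of 6 called higher, where 6.43% of all genes were. In refed mice the sums were 322.8 to 477.1 and 325.6 to 402.5, with none called. All 6 markers were above 0 in every mouse. Among the other marker lists, between genotypes, 1 of 4 tested lymphocyte genes was higher in fed WT/Y657* mice, 1 of 6 sinusoidal endothelial genes was higher and 1 of 8 hepatocyte genes lower in fasted ones, and no Kupffer cell, cholangiocyte or red cell gene was called between genotypes by edgeR. The 5 Kupffer cell markers, though not called, summed to 212.1 to 293.0 CPM (median 247.8) in fed wild-type and 201.4 to 670.0 (median 435.4) in fed WT/Y657* mice. Their median log2 fold change in fed mice was 0.695, against 0.375 for the stellate cell markers. In fasted mice the medians of the sums were 305.1 and 311.5, and in refed mice 236.9 and 267.3. The part of these cells in the *Foxo3* and *Irs1* differences was not tested.

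Markers of other cells also moved with feeding, beside the falls of *Insr*, *Irs2*, *Pdpk1* and *Foxo4* on refeeding. The summed level of the 6 sinusoidal endothelial markers was 237.7 to 321.8 CPM in fed, 329.4 to 387.1 in fasted and 272.9 to 335.5 in refed wild-type mice, and 278.6 to 334.3, 325.0 to 387.9 and 271.7 to 293.2 in WT/Y657* mice. On fasting 4 of these markers rose in wild-type animals, where 14.5% of all genes did, and 1 in the heterozygotes, where 15.2% did. On refeeding 3 and 4 fell, respectively, where 13.7% and 14.2% of all genes fell. Of the 6 stellate cell markers 1 rose and 2 fell on refeeding in each genotype, and of the 8 hepatocyte markers 2 fell in each. On fasting 2 of 4 tested lymphocyte genes rose in wild-type mice and none in WT/Y657* mice, and 1 of 5 cholangiocyte genes fell in each genotype. The 1 adipocyte gene tested rose on fasting in each (2.99 and 2.86), and the 1 pancreatic acinar gene tested fell (-1.34 and -1.19). Kupffer cell genes were called in no feeding comparison. All endothelial markers were above 0 in every mouse, and the part of these cells in the feeding differences was not tested.

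On fasting *Foxo3* changed by -0.54 (SE 0.088, adjusted p = 6.22e-06) in wild-type and -0.58 (SE 0.088, adjusted p = 2.75e-06) in WT/Y657* mice, ratios of 0.686 and 0.671, and no fasted mouse overlapped the fed mice of its genotype. The changes on refeeding were -0.00 in wild-type mice (adjusted p = 0.981, 95% interval -0.18 to 0.18) and 0.11 in WT/Y657* mice (adjusted p = 0.349, 95% interval -0.07 to 0.29), neither called, and refed mice were below fed ones by -0.55 (SE 0.087, adjusted p = 1.20e-05) and -0.46 (SE 0.088, adjusted p = 0.000123). Since fed mice come from another mouse number series than fasted and refed mice, feeding state and series cannot be told apart for this gene, whose level separated fed from all other mice of a genotype.

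*Foxo4* (ENSMUSG00000042903, chromosome X, 101254528 to 101260873, plus strand) was at 17.6 to 22.8 CPM (median 19.6) in fed wild-type and 16.3 to 23.3 (median 20.4) in fed WT/Y657* mice. It was at 17.2 to 21.8 (median 19.5) and 15.6 to 21.1 (median 17.5) after fasting, and at 11.4 to 16.8 (median 14.6) and 10.9 to 15.02 (median 12.4) after refeeding. Every refed mouse lay below every fed and every fasted mouse of its genotype. The changes on refeeding were -0.44 (SE 0.10, adjusted p = 0.000951) and -0.48 (SE 0.10, adjusted p = 0.000344), and against fed mice they were -0.47 (SE 0.10, adjusted p = 0.000567) and -0.67 (SE 0.10, adjusted p = 4.42e-06). Fasting changed it by -0.03 and -0.19, neither called, and genotype by 0.02, -0.14 and -0.18 in fed, fasted and refed mice, with a lowest adjusted p of 0.384.

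*Foxo1* (ENSMUSG00000044167, chromosome 3, 52268336 to 52353221, plus strand) was called in no comparison. Its medians were 24.9 CPM in fed wild-type and 18.2 in fed WT/Y657* mice, 19.5 and 23.3 after fasting, and 19.2 and 17.99 after refeeding. Mice within a group varied widely, from 14.1 to 32.4 CPM in fed WT/Y657* mice alone, in which 4 of 6 lay below every fed wild-type mouse and 1 above. Neighbouring group means did not differ beyond their spread. On refeeding *Foxo1* changed by -0.34 in the lower-numbered and 0.12 in the higher-numbered wild-type mice (3 against 3 each, no test). In WT/Y657* mice its changes were -0.59 and 0.02. The largest of its 9 pairwise log2 fold changes was -0.34 (refed against fed wild-type mice, SE 0.16, adjusted p = 0.107, 95% interval -0.66 to -0.02). The antisense gene *Gm20402*, which overlaps its exons, had at most 25 counts in a mouse, against at least 180 for *Foxo1*.

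**Figure D4:**
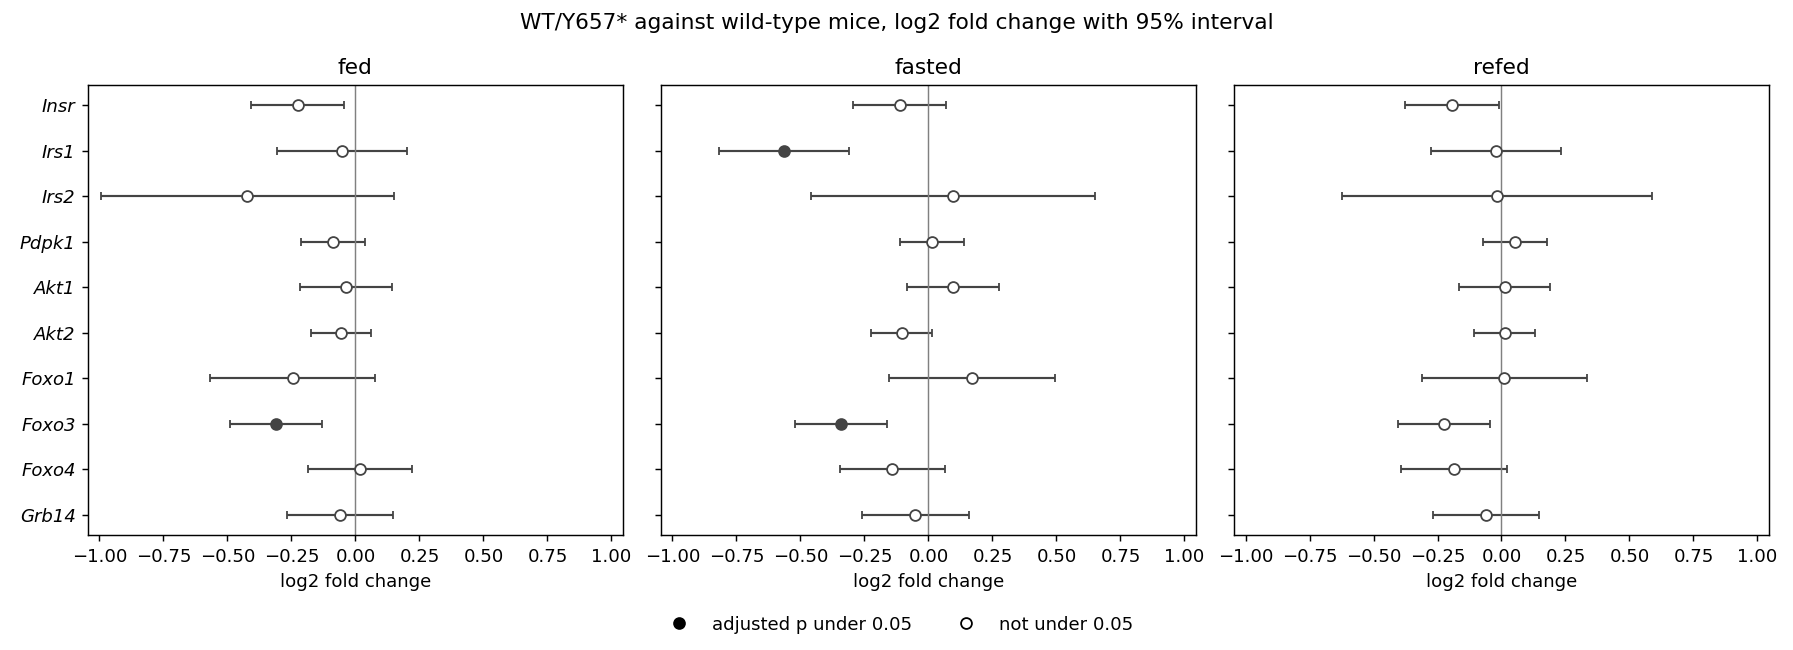
Log2 fold change of the 10 genes in WT/Y657* against wild-type mice in each feeding state, with 95% intervals; filled points passed an adjusted p under 0.05. *Foxo3* lies at -0.31, -0.34 and -0.23 in fed, fasted and refed mice, *Irs1* lies apart from 0 in fasted mice only (-0.56), and no gene passed in refed mice.

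Ratios of paired members within a mouse do not depend on library scaling, and 4 were compared over 9 comparisons by a two-sided exact permutation test, 36 tests in all, with a smallest possible p of 0.00216. None passed Benjamini-Hochberg adjustment, the lowest adjusted p being 0.0520 by exact permutation, and 12 had an unadjusted p under 0.05. This count of 0 rests on single mice, since 5 ratios were called without ONF_MT_923 or without RF6_MT_817 and 4 without ONF_WT_825 or without RF6_WT_815. With *Irs2* to *Irs1*, the log2 ratio moved on refeeding by -0.70 in wild-type animals (SE 0.21, exact p = 0.00866, adjusted 0.0623) and by -1.24 in WT/Y657* animals (SE 0.44, exact p = 0.0173, adjusted 0.0779). *Insr* to *Grb14* moved by -0.39 (SE 0.092, exact p = 0.00649, adjusted 0.0584) and -0.47 (SE 0.16, exact p = 0.0216, adjusted 0.0866). Between fed and refed wild-type mice this ratio changed by -0.44 (SE 0.099, exact p = 0.00433, adjusted 0.0520). *Akt2* to *Akt1* moved on fasting by -0.39 in WT/Y657* mice (SE 0.12, exact p = 0.00433, adjusted 0.0520), and *Foxo1* to *Foxo3* by 0.81 (SE 0.19, exact p = 0.00433, adjusted 0.0520). *Foxo1* to *Foxo3* was higher in fasted WT/Y657* than wild-type mice by 0.50 (SE 0.17, exact p = 0.0173, adjusted 0.0779).

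Other genes of the pathway were followed with a hand-written list of 50, of which 46 were tested. In fasted mice 1 was higher and 4 were lower in WT/Y657* animals, with a median log2 fold change of -0.05 against 0.00 over all genes, of which 13.1% were called (6.43% higher and 6.63% lower). None was called in fed or refed mice by edgeR. The lower genes with the smallest p were *Phlpp1*, a phosphatase that removes phosphate from AKT (-0.52, SE 0.11, adjusted p = 0.00105), *Ptprf*, a receptor tyrosine phosphatase (-0.40, SE 0.084, adjusted p = 0.00151), and *Gab1*, a docking protein (-0.46, SE 0.13, adjusted p = 0.0160). *Phlpp1* was also the 1 gene of the 46 whose response to fasting differed by genotype (-0.58, SE 0.15, adjusted p = 0.0199). Of all genes 4.35% were called in that test (2.59% higher and 1.76% lower). On fasting 8 rose and 10 fell in wild-type mice, where 14.5% of all genes rose and 17.5% fell, and 7 rose and 10 fell in WT/Y657* mice, where 15.2% and 17.7% did. The medians were -0.06 and -0.09, against 0.01 and -0.01 over all genes. *Cblb*, a ubiquitin ligase, rose to 2.07 times its fed level (adjusted p = 3.03e-06, edgeR) and *Pik3r3*, another regulatory subunit, changed by -1.34 (adjusted p = 1.25e-06, edgeR) in wild-type mice. On refeeding 7 rose and 15 fell in wild-type mice, where 16.5% of all genes rose and 13.7% fell, and 7 rose and 12 fell in WT/Y657* mice, where 17.1% and 14.2% did. The medians were -0.16 and -0.07, against 0.00 and -0.01. *Pik3r1* rose on refeeding by 0.43 (SE 0.10, adjusted p = 0.000951) and 0.62 (SE 0.10, adjusted p = 7.82e-06), after changes of -0.53 (adjusted p = 6.65e-05, edgeR) and -0.52 (adjusted p = 8.65e-05, edgeR) on fasting. Its genotype difference in response was not called on refeeding (0.19, adjusted p = 0.577, edgeR) or on fasting (0.01, adjusted p = 0.983, edgeR). *Cblb* fell by 0.89 and 0.95 on refeeding. Against fed mice, *Grb10*, an adaptor related to *Grb14*, was lower after refeeding by -0.93 (adjusted p = 2.08e-05, edgeR) and -0.82 (adjusted p = 9.15e-05, edgeR).

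Of 22 well-known FOXO target genes, all tested, 13 fell and 3 rose on refeeding in wild-type mice (median -0.36, against 0.00 over all genes, of which 13.7% fell and 16.5% rose), and 11 fell and 2 rose in WT/Y657* mice (median -0.43, against -0.01 over all genes, of which 14.2% fell and 17.1% rose). Like the other lists, this one was chosen with earlier results of these data known. Its comparison with all genes is therefore not independent of those results. *Pdk4*, which inhibits pyruvate dehydrogenase, changed by -2.73 (SE 0.33, adjusted p = 1.38e-07) and -3.03 (SE 0.34, adjusted p = 2.61e-08), and *Ccng2*, a cyclin linked to growth arrest, by -1.20 (SE 0.17, adjusted p = 8.99e-07) and -1.87 (SE 0.17, adjusted p = 1.20e-10). Among the genes that rose, *Nampt* changed by 0.75 in wild-type mice (SE 0.116, adjusted p = 4.22e-06, edgeR). On fasting 5 rose and 2 fell in wild-type mice (32% of all genes were called) and 7 rose and 4 fell in WT/Y657* mice (32.9%), with *Pck1*, the gluconeogenic enzyme, up by 1.07 and 1.24. Between fasted genotypes 2 were higher and 3 lower, where 6.43% and 6.63% of all genes were, among them *Cdkn1a*, a cell cycle inhibitor (2.54, SE 0.64, adjusted p = 0.00793), *Cat*, encoding catalase (-0.45, SE 0.105, adjusted p = 0.0034), and *Trib1* (-0.56, SE 0.13, adjusted p = 0.00445). None was called between fed or refed genotypes, or for a difference of responses, by edgeR.

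The genes whose log2 CPM over the 36 mice was most like that of *Irs2* were *Atg2a* (Pearson's r = 0.799), *Agpat6* (0.767) and *Insig2* (0.761). Those most like *Foxo3* were *Mgam* (0.882), *Gulo* (0.869) and *Cela1* (0.866). The points share libraries, feeding states and mouse number series, and the closest other member reached r = 0.587 with *Irs2* and 0.560 with *Foxo3*. *Cela1* was among the pancreatic acinar markers, and the other 3 of that list, *Prss2*, *Cpa1* and *Pnlip*, were at 0 in at least 32 of 36 livers, with no value above 0.814 CPM.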

How the data were processed

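Total RNA from snap-frozen liver was sequenced as single 50-base reads from a stranded library kit. The labels name Cuffdiff, featureCounts and edgeR without versions, and the submitters' processing notes name the build mm9. The deposited loci share an end with GENCODE M21 (GRCm38) for 65.8% of 36341 genes, so GRCm38 was used. The authors deposited estimated counts per gene and mouse, not normalized, of which 3.33% of those above 0 were not whole. All were rounded. A second table, of the authors' fitted means, was not used. Total counts per mouse were 8839488 to 19542775.

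Groups came from sample titles. The 10 genes and all lists were chosen with earlier results of these data known. In R 4.3.3, edgeR 4.0.16 kept 13945 genes (filterByExpr), scaled by TMM and fitted 1 coefficient per group to all 36 libraries (glmQLFit, robust). Contrasts were tested two-sided by glmQLFTest with Benjamini-Hochberg adjustment over all genes. The fit was tested on simulated data. Within-mouse ratios (pseudocount 0.5 counts) were compared by a two-sided exact permutation test. Likeness used log2 CPM with a prior count of 2. Named genes outside the 10 were drawn from the 3 called genes of smallest p per list and comparison, and not all of these are named. The 3 genes most correlated with each of the 2 members of widest range, and *Pik3r1*, were also named. Overlapping antisense genes (*Gm9747*, *Gm20402*, *9530052E02Rik*) and single markers (*Alb*, *Prss2*, *Cpa1*, *Pnlip*, *Cidec*, *Adipoq*, *Plin1*, *Lep*) were chosen outside this rule, after values were seen. Alternatives were DESeq2 1.42.0, the likelihood ratio test, other scaling and filters, fewer groups, mouse number series as covariate and leaving out each mouse. Values within series were added after seeing the data. Protein sequences were not analysed here.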

Additional observations from a re-analysis of the deposited data

Results flagged for a closer look

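Each of the 10 genes was examined in each of the 6 groups of 6 mice for a single mouse standing far from the others by Dixon's criterion, 60 groups in all, of which chance alone would be expected to mark about 1 in 20. *Irs1* in fed WT/Y657* mice was the 1 case found. The mouse labelled ALC_MT_857 was at 53.9 CPM, against 28.5 to 37.9 CPM in the other 5 mice, and its gap to the nearest of them was 0.632 of the whole range, above the critical value of 0.625. It is 1 of the 2 fed WT/Y657* mice with the highest *Insr* level.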

How the results depend on the processing

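Directions of all called changes of the 10 genes held under every alternative run. In fed mice no gene was called between genotypes with scaling by library size alone (*Foxo3* -0.21, adjusted p = 0.128), with no filter (adjusted p = 0.0613) or with only the groups compared (adjusted p = 0.122, edgeR), against 1 with all libraries, so the count was 0 under each. Library size scaling moved the median of all genes between fed genotypes to 0.11, from 0.01 under TMM. Leaving out 1 mouse gave 0 to 2 genes called in this comparison. With only the groups compared, the fasting count in WT/Y657* mice fell to 2 and that for the genotype difference on refeeding rose to 1. Other counts stayed within 1.5 times. *Pdpk1* on fasting in WT/Y657* mice (0.18) lost its call with no filter, library size scaling, only the groups compared and without ALC_MT_868 or ONF_MT_921. It gained one in refed against fed WT/Y657* mice with DESeq2, size-factor scaling, the stricter filter and without RF6_MT_810, ALC_MT_868 or RF6_MT_898 (adjusted p from 0.0305 to 0.0472). *Akt2* was called on refeeding in wild-type mice with library size scaling (0.20, adjusted p = 0.00472) and without ONF_WT_919 (0.16, adjusted p = 0.0371, edgeR). With only refed and fed wild-type libraries, *Irs1* (-0.26, adjusted p = 0.0368) and *Foxo1* (-0.34, adjusted p = 0.0183, edgeR) were called. Leaving out 1 mouse gave 0 to 5 ratios called. Other pseudocounts called 0. The series covariate cannot adjust comparisons with fed mice, which come from neither series, and is not read for them. The cause of these changes was not tested.

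No paired analysis was possible because the labels number each mouse once. *Irs2* had 53 to 456 counts per mouse and standard errors of 0.27 to 0.30 on the log2 scale for comparisons of 2 groups, against about 0.10 for *Foxo4*, which had 111 to 342 counts, and *Irs2* also varied most between mice. Each group is 6 mice, and the fed mice share no number series with the others.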
